A study of Homo sapiens with 19 samples.

Results

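The Krüppel-like factor genes KLF2 to KLF11 were followed through the expression and binding data of 786-O renal carcinoma cells. They are 10 of the 23441 gene symbols of the count table and were selected on symbol and on the higher KLF8 counts measured after HIF-1α re-expression. That contrast therefore chose the set: values of the members in it are a description, and KLF8 is given without a p-value in every comparison, since each shares libraries with the choice. All 10 members passed the filter on low counts. 786-O, an established cell line, derives from a clear cell renal carcinoma and lacks functional VHL, so that HIF-α subunits escape degradation in every pool used here. It expresses full-length HIF-2α, whereas its own HIF-1α transcripts are truncated. Pools of these cells were infected with the lentiviral vector pRRL. It was either empty (control cells), carried wild-type HIF-1α (HIF-1α re-expressing cells) or carried wild-type HIF-2α (HIF-2α overexpressing cells). Below, the HIF-1α re-expressing and HIF-2α overexpressing cells are called the virus-carrying pools for short. The control cells were infected as well, with the empty vector. RNA was sequenced from 3 preparations of each of the 3 pools, 9 libraries in all, and 7 lists of ChIP-seq peaks came from 1 library each. Nothing states that the preparations came from separate infections, so p-values measure the spread between these samples, which may be technical.

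Krüppel-like factors share a C-terminal array of C2H2 zinc fingers that reads GC-rich and CACCC boxes, and differ in their N-terminal domains. KLF3 and KLF8 carry a motif that recruits the corepressor CtBP. KLF9, KLF10 and KLF11 contact the corepressor Sin3A, and KLF2, KLF4, KLF5, KLF6 and KLF7 are best known as activators or context-dependent regulators of proliferation, endothelial quiescence and epithelial differentiation. Hypoxia-inducible factors bind as dimers of an α subunit with HIF-1β at hypoxia response elements, whose core is ACGTG or GCGTG.

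Library totals ran from 27852754 to 54287621 counts. Values are counts scaled to a common library size (CPM) with the TMM factors of edgeR, and differences are log2 fold changes with their SE. HIF1A, which the HIF-1α virus carries, was at 172, 1682 and 473 CPM in the HIF-1α re-expressing cells. It was at 30.4, 36.7 and 152 CPM in the control cells. EPAS1, which encodes HIF-2α, was at 946, 3244 and 880 CPM in the HIF-2α overexpressing cells and at 456, 224 and 162 CPM in the control cells. Control replicate 3 stood apart from the other control libraries: CA9, a HIF-1α target, was at 14.3 CPM in it and at 0 and 0.171 CPM in the others. For the KLF members, differences from the control cells that moved without that library are also given without it. The other genes named were not fitted without control replicate 3, so its weight in their differences was not tested. Of 6 renal and clear cell carcinoma markers 5 were above 1 CPM in all 9 libraries. The 3 endothelial markers summed to at most 0.894 CPM, PTPRC and CD3E stayed below 1 CPM throughout, and the leukocyte list summed to between 28.7 and 160.0 CPM through CD68, whose part in the results was not tested. The fibroblast list summed to between 9.33 and 40.4 CPM.

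Set against the length of their exons, the KLF transcripts of the control cells differed widely. KLF6 was the most abundant at 65.3 ± 25.6 CPM per kb (SD, n = 3), followed by KLF10 at 25.1 ± 4.97. The ranges of these genes did not overlap. KLF11, KLF4, KLF3 and KLF7 lay together, with means from 6.02 to 8.25 CPM per kb and overlapping ranges. KLF9 had 2.5 ± 1.1, KLF5 1.82 ± 0.386 and KLF2 1.57 ± 0.393 CPM per kb, and these neighbours did not differ beyond their spread. KLF8 was the lowest at 0.0868 ± 0.0581 CPM per kb. On this scale it was still the lowest in the HIF-1α re-expressing cells, at 0.497 ± 0.256 CPM per kb. Its libraries there spanned 0.336 to 0.791. Lengths cover all exons that GENCODE annotates, 12.7 kb for KLF8, the longest, whereas reads were counted on UCSC genes. By CPM alone the mean of KLF8 in these cells was 6.31, above KLF2 (3.78) and close to KLF5 (6.52). In a bulk sample, more cells with the transcript and more transcript in each cell cannot be told apart.

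**Figure D1:**
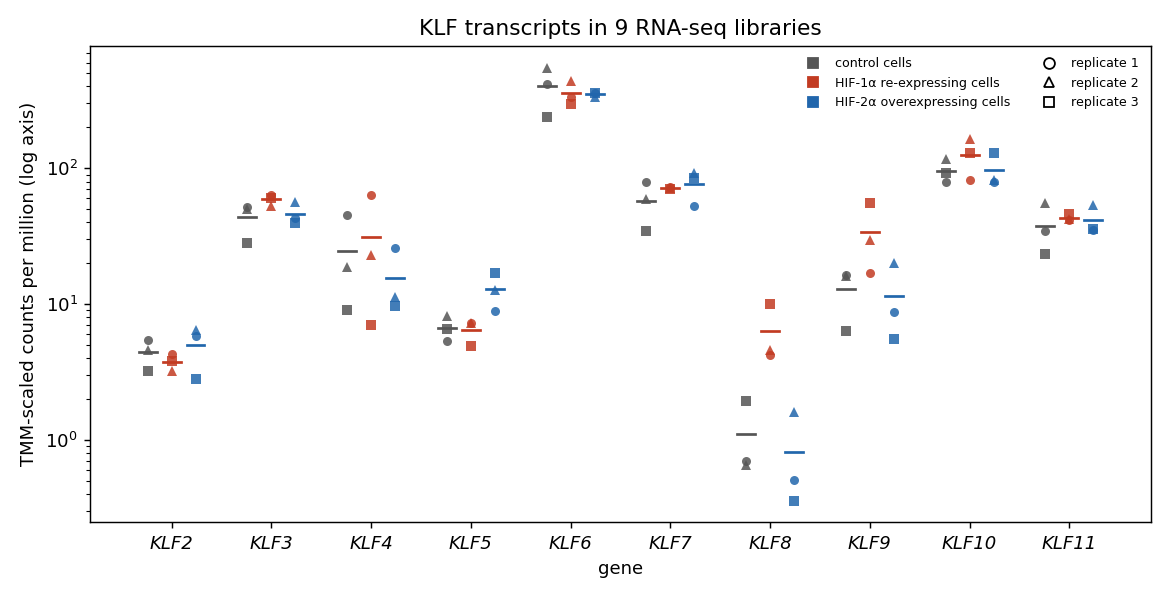
TMM-scaled CPM (log axis) of the 10 KLF genes in each of 9 libraries, with colours for the pools, symbols for the replicate numbers and bars for the mean of 3 libraries. KLF8 sits at 4.26 CPM or more in the HIF-1α re-expressing cells and below 2 CPM in the other 6 libraries, whereas replicate 1 is the highest KLF4 library of each pool.

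KLF8, a repressor that recruits CtBP and is known for roles in cell motility and the epithelial to mesenchymal transition, was detected in every library but at few counts, from 14 in an HIF-2α overexpressing library to 540 in an HIF-1α re-expressing one. Its level was 0.699, 0.654 and 1.95 CPM in the control cells and 4.26, 4.61 and 10.1 CPM in the HIF-1α re-expressing cells. The 3 libraries of the HIF-1α re-expressing cells all lay above all 3 control libraries, and the highest control value was that of control replicate 3. In the HIF-2α overexpressing cells KLF8 was at 0.506, 1.61 and 0.36 CPM, a range that included the first 2 control libraries. Against control cells its log2 fold change was 2.51 ± 0.68 (SE). Without control replicate 3 it was 3.21. Compared within replicate numbers, KLF8 was 6.11, 7.04 and 5.14 times as high in HIF-1α re-expressing as in control cells, a narrow range around a mean of 6.1 ± 0.948 (SD, n = 3). Against the HIF-2α overexpressing cells the ratios were 8.44, 2.87 and 27.9, which spread far more widely, and the log2 fold change was 2.95 ± 0.70. In HIF-2α overexpressing against control cells the log2 fold change was -0.44 ± 0.67, and it turned to 0.26 without control replicate 3. Of the spread of log2 CPM of KLF8 over the 9 libraries, 77.4% lay between pools and 4.25% between replicate numbers, where the median tested gene had 32.6% and 35.9%. KLF8 was chosen for its higher counts in 1 pool, so a large share between pools follows in part from that choice.

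Over the 9 libraries, the levels most like that of KLF8 (Pearson correlation of log2 CPM among 10670 genes with a mean of at least 5 CPM) were those of ATP8B2 (r = 0.987), CHRDL1 (0.968), ADRBK2 (0.966), MMP16 (0.964) and RELN (0.961). ATP8B2 encodes a phospholipid flippase subunit, CHRDL1 a secreted antagonist of bone morphogenetic proteins, ADRBK2 a kinase of G protein-coupled receptors, MMP16 a membrane-type metalloproteinase and RELN the extracellular protein reelin. CHRDL1 was at 178, 178 and 325 CPM in the HIF-1α re-expressing cells and at 39.3, 39.5 and 102 CPM in the control cells. ATP8B2 followed the same order, with 18.1, 15.6 and 37.4 CPM against 3.16, 3.93 and 9.9 CPM. As with KLF8, both were highest among control libraries in replicate 3. These correlations describe 9 libraries that share 3 pools, and a pattern shared with KLF8 follows from how the 5 genes were picked.

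**Figure D2:**
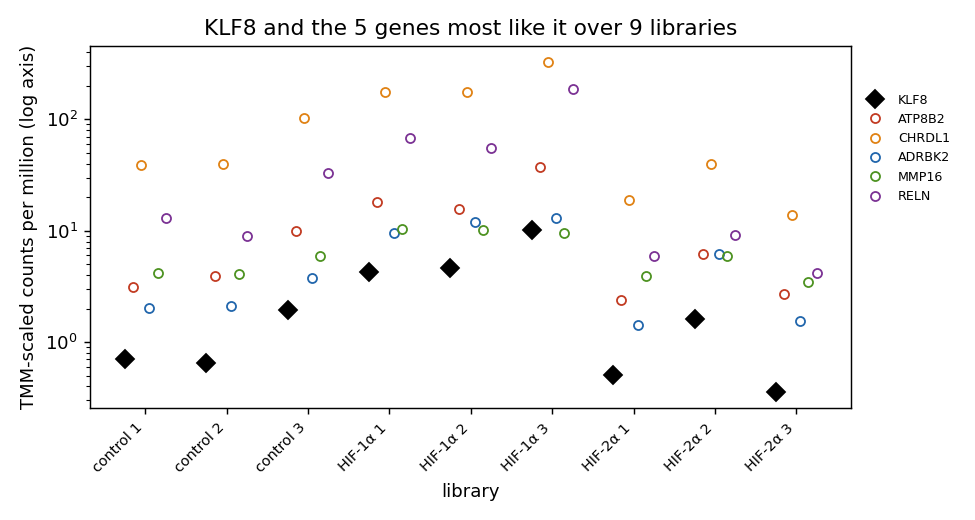
TMM-scaled CPM (log axis) of KLF8 (filled diamonds) and of the 5 genes most like it (open circles) in each of the 9 libraries. All 6 genes are higher in each HIF-1α re-expressing library than in any control library, and all 6 are highest among control libraries in control replicate 3. The 5 genes were picked for their likeness to KLF8 over these same libraries, so the shared pattern follows from the choice.

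No peak of any of the 7 lists lay within 100 kb of a KLF8 start site, and the nearest, a HIF-1β peak of the HIF-1α re-expressing cells, was 1360 kb away. Of the 13767 tested genes placed on the genome, 18.1% had no peak within 100 kb. KLF8 lies on the X chromosome (GRCh37 chrX:56258789-56317964, plus strand), which held 213 of the 29309 peaks (0.727%), and 60.0% of the 452 tested genes of that chromosome had no peak within 100 kb. RefSeq lists further start sites 324 kb upstream, and the nearest peak to these was 1680 kb away. Of the 4 RefSeq promoters of KLF8 placed on GRCh37, the 2 at these upstream start sites each hold 1 HRE core (GCGTG) in their 250 upstream bases, and the 2 at or near GENCODE start sites hold 0. Of the 35116 RefSeq promoters 43.2% hold a core in this window. A window of each kind is shown, with the core in capitals; a match is not a site, and a missing match says only that these letters are not in the window.

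KLF8 before the GENCODE start site, chrX:56258539-56258788, plus strand: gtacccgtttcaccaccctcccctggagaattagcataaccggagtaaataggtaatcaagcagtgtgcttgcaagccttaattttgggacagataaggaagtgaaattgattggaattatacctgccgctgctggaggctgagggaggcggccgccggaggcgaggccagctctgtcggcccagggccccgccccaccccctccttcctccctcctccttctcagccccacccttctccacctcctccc
KLF8 before an upstream RefSeq start site, chrX:55934306-55934555, plus strand: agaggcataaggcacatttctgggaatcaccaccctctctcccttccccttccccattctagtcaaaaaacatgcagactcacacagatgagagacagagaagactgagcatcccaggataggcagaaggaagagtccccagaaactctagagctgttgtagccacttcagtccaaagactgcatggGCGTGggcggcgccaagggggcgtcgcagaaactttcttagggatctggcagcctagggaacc

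KLF3, the other CtBP-binding member, has been studied as a repressor in erythroid and adipose cells. It was at 52.2, 50.3 and 28.4 CPM in the control cells and at 64.1, 52.7 and 60.9 CPM in the HIF-1α re-expressing cells, which all lay above the controls. The ratios within replicate numbers were 1.23, 1.05 and 2.14, so that the highest came from control replicate 3. Its log2 fold change was 0.44 ± 0.26 against control cells and 0.20 without that library, and it was 0.36 ± 0.26 against the HIF-2α overexpressing cells (adjusted p = 0.573). In HIF-2α overexpressing against control cells it was 0.08 ± 0.26 (adjusted p = 0.976), and -0.15 without control replicate 3. An antisense gene, KLF3-AS1, overlaps exons of KLF3, and the counting's strand setting is not given in the sources used here, so its reads cannot be told apart from those of KLF3. Peaks of 4 lists lay within 0.123 kb of a KLF3 start site, at the GC-rich promoter. In the HIF-1α list the nearest midpoint lay 0.106 kb upstream, and a core near it lies 161 bases before the start site.

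KLF3 promoter, chr4:38665643-38665671, plus strand, core in capitals: gcagggcggggtGCGTGtttgcgcgagtg

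**Figure D3:**
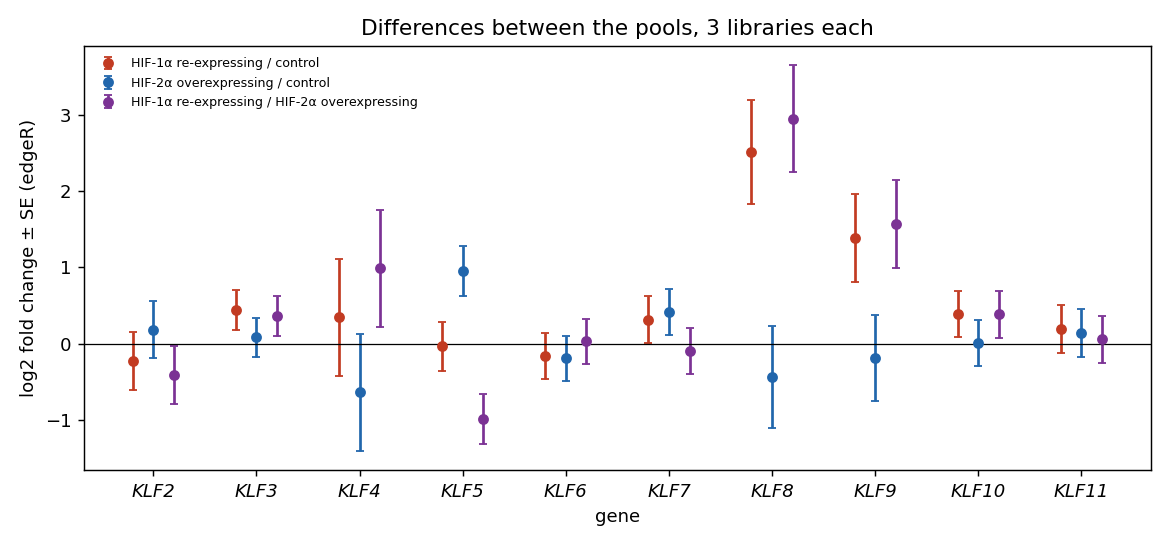
Log2 fold changes with their SE (edgeR, 3 libraries per pool) of the 10 KLF genes in 3 comparisons of the pools. KLF8 (2.51 and 2.95) and KLF9 (1.38 and 1.57) lie above 0 in both comparisons with the HIF-1α re-expressing cells, and KLF5 is the member with the highest value in the HIF-2α overexpressing cells (0.95).

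Among the members known as activators or context-dependent regulators, KLF5, a factor of proliferating epithelium, was the one whose libraries separated in the HIF-2α overexpressing cells. It was at 5.33, 8.16 and 6.57 CPM in the control cells, 7.33, 7.32 and 4.91 CPM in the HIF-1α re-expressing cells and 8.96, 12.8 and 17.0 CPM in the HIF-2α overexpressing cells. Every HIF-2α overexpressing library was above every library of both other pools. The log2 fold change in HIF-2α overexpressing against control cells was 0.95 ± 0.33 (adjusted p = 0.796; 0.226 with the replicate number as a block), with ratios of 1.68, 1.57 and 2.58 within replicate numbers. In HIF-1α re-expressing against HIF-2α overexpressing cells it was -0.99 ± 0.33 (adjusted p = 0.23; 0.095 with the block). Neither passed the threshold of 0.05 in edgeR. DESeq2 with the block, chosen after seeing the data, called KLF5 lower in the second comparison (-0.98, adjusted p = 0.0175) and not in the first (0.95, adjusted p = 0.0609). The share of all tested genes that this fit called was not counted. For reference, 6% of the 14225 tested genes had all HIF-2α overexpressing libraries above all control libraries, and 8.82% had all HIF-1α re-expressing libraries below all HIF-2α overexpressing ones. One peak lay within 100 kb of KLF5, a HIF-1β peak of the HIF-1α re-expressing cells 0.227 kb after one of its start sites. No HIF-2α peak was listed within 1480 kb. A core 134 bases after the start site lies in that window.

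KLF5 UTR, chr13:73633263-73633291, plus strand, core in capitals: acgttggcgtttACGTGtggaagagcgga

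KLF4, a factor of epithelial differentiation and of reprogramming, varied with the replicate number. It was at 45.4, 18.8 and 9.14 CPM in replicates 1 to 3 of the control cells, 63.3, 22.9 and 7.0 CPM in those of the HIF-1α re-expressing cells and 25.9, 11.4 and 9.69 CPM in those of the HIF-2α overexpressing cells. Replicate 1 was the highest library of every pool. Replicate numbers accounted for 84.1% of the spread of its log2 CPM and pools for 6.54%. In HIF-2α overexpressing against control cells the log2 fold change was -0.64 ± 0.77 (adjusted p = 0.892), and with the replicate number as a block the SE fell to 0.30 (log2 fold change -0.44, adjusted p = 0.508). In HIF-1α re-expressing against HIF-2α overexpressing cells it was 0.99 ± 0.77 (adjusted p = 0.605), and 0.62 ± 0.31 with the block (adjusted p = 0.249). An uncharacterised antisense gene overlaps its exons, and a share of its reads cannot be assigned. Peaks of 4 lists lay within 0.241 kb of its start sites, namely HIF-1β in all 3 pools and HIF-1α. The 300 bases around the HIF-1β peak of the control cells, about 0.176 kb upstream, hold the palindrome CACGTG, which is a core on both strands and was counted as 2. The same palindrome lies in the windows of the HIF-1α peak and of the HIF-1β peak of the HIF-2α overexpressing cells, and the window is shown because 3 lists share it.

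KLF4 promoter, chr9:110252076-110252375, plus strand, cores in capitals: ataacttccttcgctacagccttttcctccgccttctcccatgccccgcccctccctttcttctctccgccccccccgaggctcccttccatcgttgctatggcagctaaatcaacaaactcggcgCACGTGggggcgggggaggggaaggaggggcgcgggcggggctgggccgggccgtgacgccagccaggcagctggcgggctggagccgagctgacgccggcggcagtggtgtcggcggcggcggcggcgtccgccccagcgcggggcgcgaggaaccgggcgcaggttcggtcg

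KLF6, an injury-induced factor also studied as a tumour suppressor, was the most abundant member. It was at 415, 551 and 238 CPM in the control cells, 336, 438 and 298 CPM in the HIF-1α re-expressing cells and 361, 332 and 357 CPM in the HIF-2α overexpressing cells. The ranges overlapped in all 3 comparisons. The log2 fold change in HIF-2α overexpressing against control cells was -0.20 ± 0.30 (adjusted p = 0.923), and that between the virus-carrying pools was 0.03 ± 0.30 (adjusted p = 0.98). Nevertheless KLF6 had the most peaks around it, 27 within 100 kb of its start sites, and 2.51% of the placed genes had as many or more. None of the 27 was a HIF-1α peak; the nearest of those lay 313 kb away. Of the HIF-2α peaks of the overexpressing cells 8 lay within 100 kb, against 2 of those of the control cells. One of these 8 lay 4.82 kb from the nearest start site, beyond the 3′ end of the gene, and was in no other list. Its 300 central bases hold 2 HRE cores and 1 AP-1 motif (TGAGTCA). Of the 5283 HIF-2α peaks of these cells 45.7% held an HRE core and 24.7% an AP-1 motif (TGACTCA or TGAGTCA, either strand) in the same window.

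KLF6 downstream site, chr10:3817442-3817741, plus strand, HRE cores and AP-1 motif in capitals: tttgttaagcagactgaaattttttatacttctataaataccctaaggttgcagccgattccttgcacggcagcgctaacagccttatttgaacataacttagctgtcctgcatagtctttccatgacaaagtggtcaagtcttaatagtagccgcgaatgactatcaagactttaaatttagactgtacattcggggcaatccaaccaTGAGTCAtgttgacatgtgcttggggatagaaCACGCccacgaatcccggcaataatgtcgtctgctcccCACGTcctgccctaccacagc

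KLF7, a factor of neuronal development, was at 79.5, 59.5 and 34.6 CPM in the control cells, with the lowest in replicate 3. It was at 73.1, 72.2 and 70.7 CPM in the HIF-1α re-expressing cells, the closest agreement of any member. In HIF-2α overexpressing cells it was at 53.2, 93.0 and 85.3 CPM, and the log2 fold change against control cells was 0.41 ± 0.31 (adjusted p = 0.844). Without control replicate 3 it was 0.15, and the log2 fold change of 0.31 in HIF-1α re-expressing against control cells was 0.05. Between the virus-carrying pools it was -0.10 ± 0.31 (adjusted p = 0.919). Antisense genes, MYOSLID among them, overlap its exons. Peaks of the same 4 lists as at KLF4 lay within 0.113 kb of its start sites.

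KLF2, a shear-stress factor of endothelium, was low in all pools, between 2.83 and 6.42 CPM. Its log2 fold change was 0.18 ± 0.38 in HIF-2α overexpressing against control cells (adjusted p = 0.946) and -0.41 ± 0.38 between the virus-carrying pools (adjusted p = 0.668). The ranges overlapped. The HIF-1β list of the HIF-1α re-expressing cells held the single peak within 10 kb, 0.211 kb after a start site, and 5 of the other lists held a peak at 13.5 to 15 kb.

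KLF9 was first described as a GC box-binding protein and is induced by glucocorticoid. Like KLF8 and KLF3, it had all HIF-1α re-expressing libraries above all control libraries. It was at 16.5, 16.2 and 6.36 CPM in the control cells and at 16.9, 29.6 and 55.3 CPM in the HIF-1α re-expressing cells. These groups did not overlap, but HIF-1α replicate 1 exceeded the highest control library by less than 1 CPM. Within replicate numbers the ratios were 1.03, 1.82 and 8.7, so that the third pair, which holds the lowest control and the highest HIF-1α re-expressing value, set most of the difference. Its log2 fold change was 1.38 ± 0.57; it was 1.05 without control replicate 3 and 0.84 without HIF-1α replicate 3. In HIF-2α overexpressing cells KLF9 was at 8.84, 19.96 and 5.52 CPM, which overlapped both other pools. Against control cells its log2 fold change was -0.19 ± 0.57 (adjusted p = 0.97). In HIF-1α re-expressing against HIF-2α overexpressing cells it was 1.57 ± 0.58 (adjusted p = 0.274, and 0.114 with the replicate number as a block). DESeq2 with the block, chosen after seeing the data, called it (1.71, adjusted p = 0.00877), and the share of all tested genes called by that fit was not counted.

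KLF9 had peaks of 6 lists within 10 kb, all except HIF-2α in the HIF-1α re-expressing cells, and 3.89% of the placed genes had peaks of at least 6 lists. All 6 held a peak 4.77 to 5.35 kb upstream of the single start site. HIF-1α and both HIF-1β lists of the control and HIF-1α re-expressing cells also held a peak 1.09 to 1.27 kb inside the gene, in the 5′ UTR. The 300 bases around the upstream HIF-1α peak hold 5 cores, among them a palindrome near the left end and an adjoining pair in GCGTGCACGT. Of the 5147 HIF-1α peaks 65.5% held at least 1 core in this window. The RefSeq upstream window of KLF9 itself held none.

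KLF9 upstream site, chr9:73034272-73034571, plus strand, cores in capitals: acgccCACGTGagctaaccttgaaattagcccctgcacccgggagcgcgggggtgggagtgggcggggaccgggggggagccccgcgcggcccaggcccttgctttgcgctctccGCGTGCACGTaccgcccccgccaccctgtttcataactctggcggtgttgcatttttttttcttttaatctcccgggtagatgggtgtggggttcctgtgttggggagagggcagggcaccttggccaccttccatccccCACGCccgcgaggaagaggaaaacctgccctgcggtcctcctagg

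KLF10 and KLF11, which are induced by TGF-β and bind Sin3A, overlapped between all pools. KLF10 was at 79.2, 117 and 92.2 CPM in the control cells, 82.1, 166 and 130 CPM in the HIF-1α re-expressing cells and 78.9, 81.6 and 129 CPM in the HIF-2α overexpressing cells. It was higher in HIF-1α re-expressing than in control cells in each of the 3 pairs, with ratios of 1.04, 1.42 and 1.41, but the ranges overlapped. Its log2 fold change was 0.01 ± 0.30 in HIF-2α overexpressing against control cells (adjusted p = 0.998) and 0.38 ± 0.30 between the virus-carrying pools (adjusted p = 0.61). KLF10 was the one member with a peak of all 7 lists within 10 kb, at 0.047 to 0.534 kb from a start site, as had 1.84% of the placed genes. It was also the only member near a HIF-2α peak of the HIF-1α re-expressing cells, at 0.337 kb. KLF11 was at 34.7, 55.7 and 23.3 CPM in the control cells, 41.6, 42.4 and 45.8 CPM in the HIF-1α re-expressing cells and 35.2, 54.0 and 36.0 CPM in the HIF-2α overexpressing cells. Its log2 fold changes were 0.14 ± 0.31 (HIF-2α overexpressing against control, adjusted p = 0.952) and 0.05 ± 0.31 (between the virus-carrying pools, adjusted p = 0.962). An antisense gene overlaps its exons. KLF11 had HIF-1β peaks of the control and HIF-1α re-expressing cells within 0.074 kb of a start site and no HIF-α peak within 10 kb.

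**Figure D4:**
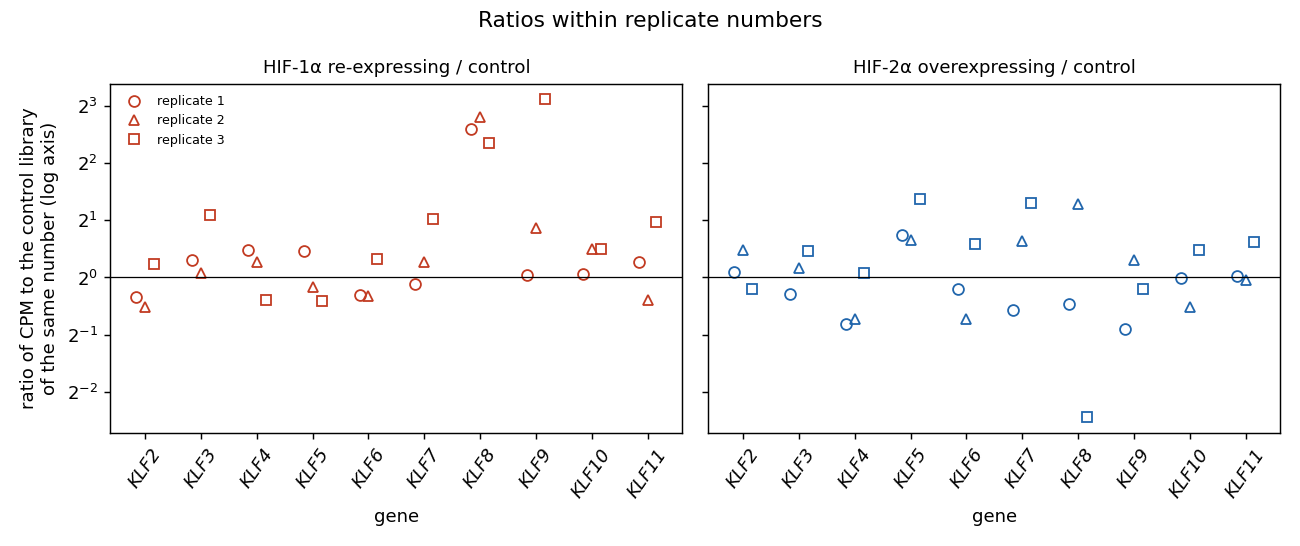
Ratio of CPM to the control library of the same number (log axis, symbols for the 3 numbers) for each KLF gene, with HIF-1α re-expressing cells on the left and HIF-2α overexpressing cells on the right. The KLF8 ratios on the left lie between 5.14 and 7.04, while the KLF9 ratios spread from 1.03 to 8.7; on the right KLF5 is above 1 in all 3 pairs.

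Counted over the set, 0 of the 10 members were called in any comparison by the fit without a block, where the percentage called of the 14225 tested genes was 0 in each comparison with control cells and 0.0492 between the virus-carrying pools. At an unadjusted p under 0.05 the tested genes numbered 1586 higher and 1171 lower in HIF-1α re-expressing cells, and 476 higher and 362 lower in HIF-2α overexpressing cells. In HIF-2α overexpressing against control cells no member was called by edgeR with the replicate number as a block (0.267% of tested genes called) or by DESeq2 without it (0.412%). Between the virus-carrying pools edgeR with the block called 0 of the 9 members other than KLF8 (4.54% of tested genes called higher, 1.38% lower). DESeq2 without the block also called 0 of these 9 members (3.43% of tested genes called higher, 0.994% lower). DESeq2 with the block called KLF9 higher and KLF5 lower. At an unadjusted p under 0.05 the members numbered 1 higher (KLF5) in HIF-2α overexpressing against control cells, and, KLF8 aside, 1 higher (KLF9) and 1 lower (KLF5) between the virus-carrying pools. Without control replicate 3 the log2 fold changes in HIF-2α overexpressing against control cells were -1.04 for KLF4, -0.47 for KLF6, -0.52 for KLF9 and -0.12 for KLF11, and those in HIF-1α re-expressing cells were -0.05 for KLF4, -0.44 for KLF6, -0.07 for KLF11 and -0.42 for KLF2. KLF3, KLF8 and KLF9 were the 3 members with all HIF-1α re-expressing libraries above all control libraries, where 12.9% of the tested genes were. KLF8 also lay above all HIF-2α overexpressing libraries, as did 10.4% of the tested genes. The median log2 fold change of the 10 members was 0.33 in HIF-1α re-expressing cells (0.04 over all tested genes), 0.04 in HIF-2α overexpressing cells (-0.02) and 0.21 between the virus-carrying pools (0.02). The rule used KLF8 in the first of these comparisons, so that median is a description of a chosen set. KLF4 and KLF11 turned negative there without control replicate 3, and the median was not taken without that library.

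**Figure D5:**
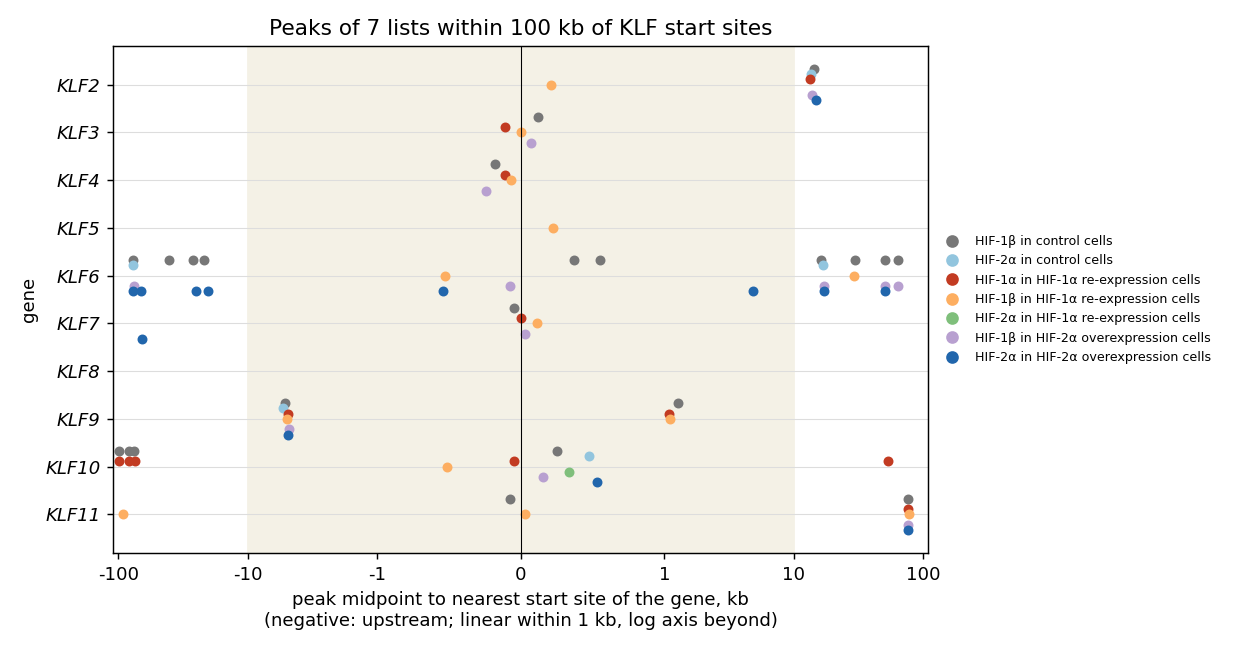
Distance in kb from the midpoint of each peak to the nearest start site of the gene, for 7 peak lists (colours) within 100 kb of the 10 KLF genes, on an axis that is linear within 1 kb and logarithmic beyond, with the 10 kb window shaded. KLF8 has no peak, KLF10 has peaks of all 7 lists within 1 kb, and at KLF9 peaks of 6 lists gather 4.77 to 5.35 kb upstream.

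Peaks of HIF-1β lay within 10 kb of 7 members in the control cells, 9 in the HIF-1α re-expressing cells and 6 in the HIF-2α overexpressing cells, where 25.7%, 40.8% and 16.2% of the placed genes had one. The HIF-1α list, which exists for the HIF-1α re-expressing cells alone, had one near 5 members (KLF3, KLF4, KLF7, KLF9 and KLF10), beside 34.6% of placed genes. HIF-2α had a peak near 2 members in the control cells (KLF9 and KLF10, 5.33%), near 1 in the HIF-1α re-expressing cells (KLF10, 4.22%) and near 3 in the HIF-2α overexpressing cells (KLF6, KLF9 and KLF10, 14.5%). With 1 library per list these are counts without a test, and the lists hold positions but no signal. Of the 4 members outside the HIF-1α list other than KLF8, namely KLF2, KLF5, KLF6 and KLF11, all were near a HIF-1β peak of that pool.

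Of 7 further KLF genes 3 (KLF12, KLF13 and KLF16) passed the filter, and 0 of 3 were called in any comparison, with 0 at an unadjusted p under 0.05. KLF16 had the difference of largest size in HIF-1α re-expressing against control cells, -0.44 ± 0.29 (adjusted p = 0.417). All 3 had negative differences between HIF-1α re-expressing and HIF-2α overexpressing cells (median -0.21). Of the 9 related SP genes 7 were tested and 0 were called without the block, and DESeq2 called 0. In HIF-1α re-expressing against control cells 1, SP5, had an unadjusted p under 0.05 in edgeR. Against HIF-2α overexpressing cells SP5 was lower (-1.27 ± 0.53, adjusted p = 0.334) and SP6 higher (1.04 ± 0.45, adjusted p = 0.343), both at an unadjusted p under 0.05. SP5, a target and repressor in Wnt signalling, was at 2.92, 4.15 and 1.23 CPM in the control cells and 1.18, 1.37 and 0.707 CPM in the HIF-1α re-expressing cells, which overlapped. Its log2 fold change was -1.35 ± 0.53 (adjusted p = 0.223), and it was called lower with the replicate number as a block (-1.26, adjusted p = 0.0481), as were 2.55% of the tested genes. SP3, SP4 and SP6 were not called.

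Of 11 cofactors of KLF proteins all were tested and 0 called without the block. DESeq2 called 1 higher in HIF-1α re-expressing against control cells (3.53% of tested genes), where 1 had an unadjusted p under 0.05 in edgeR. SIN3B, a scaffold of histone deacetylase complexes related to Sin3A, was at 63.3, 49.6 and 54.1 CPM in the control cells, 91.0, 80.5 and 131 CPM in the HIF-1α re-expressing cells and 61.5, 67.3 and 66.3 CPM in the HIF-2α overexpressing cells. The HIF-1α re-expressing libraries lay above all others. Of the tested genes 12.9% lay so against control libraries and 10.4% against HIF-2α overexpressing ones. Its log2 fold change against control cells was 0.86 ± 0.22 (adjusted p = 0.149), and it was called with the block (adjusted p = 0.0427), as were 5.41% of the tested genes in that direction. EP300, HDAC1 and KAT2B did not pass the test in either fit. The median log2 fold change of the 11 genes was 0.10 in HIF-1α re-expressing cells and 0.05 in HIF-2α overexpressing cells.

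Of 15 upstream regulators 0 were called in the fit without a block, while 13 had positive log2 fold changes in HIF-1α re-expressing cells (median 0.42, beside 0.04 over all tested genes) and 9 in HIF-2α overexpressing cells (median 0.01). DESeq2 called 0 as well, and 5 had an unadjusted p under 0.05 in HIF-1α re-expressing against control cells. NR3C1, the glucocorticoid receptor that induces KLF9, was at 133, 162 and 90.0 CPM in the control cells. In the HIF-1α re-expressing cells it was at 183, 201 and 307 CPM. These ranges did not overlap, as for 12.9% of the tested genes in that direction. Its log2 fold change was 0.84 ± 0.28 (adjusted p = 0.189, and 0.0764 with the block). The ratios within replicate numbers were 1.37, 1.24 and 3.41, so that the highest came from control replicate 3. TGFBR1, a receptor upstream of KLF10 and KLF11, was at 64.5, 66.8 and 44.3 CPM in the control cells. In the HIF-2α overexpressing cells it was at 92.2, 100 and 123 CPM, again without overlap, as for 6% of the tested genes. Its log2 fold change was 0.85 ± 0.24 (adjusted p = 0.726, and 0.16 with the block). The ratios within replicate numbers were 1.43, 1.5 and 2.77. PTK2 encodes the focal adhesion kinase reported upstream of KLF8. It had a log2 fold change of 0.42 ± 0.19 in HIF-1α re-expressing cells (adjusted p = 0.253, and 0.121 with the block). MEF2C had one of 0.82 ± 0.35 (adjusted p = 0.243, and 0.0804 with the block). None of these passed the test in either edgeR fit. EGR1, an immediate early factor named after its values were seen, was called with the replicate number as a block alone. It was higher in HIF-1α re-expressing than in HIF-2α overexpressing cells (1.23, adjusted p = 0.0274, and 0.605 without the block). That fit called 4.54% of the tested genes higher there, and no other of the 15 regulators in any comparison. Of 8 genes of KLF protein turnover, including the ubiquitin ligases WWP1, SMURF2 and BTRC and the SUMO ligase PIAS1, 0 were called by edgeR or DESeq2. In edgeR 1 (SMURF2) had an unadjusted p under 0.05 in HIF-2α overexpressing against control cells. All 8 had positive log2 fold changes in HIF-1α re-expressing against control cells (median 0.18, beside 0.04 over all tested genes). In HIF-2α overexpressing against control cells 7 were positive (median 0.265, beside -0.02). Between the virus-carrying pools 3 were positive (median -0.11, beside 0.02).

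Of 16 genes listed as KLF targets 12 were tested and 0 called without the block, with 1 at an unadjusted p under 0.05 in each comparison. DESeq2 called 1 higher, between the virus-carrying pools (3.43% of tested genes called higher). With the block edgeR called 1 higher in HIF-1α re-expressing against control cells and 2 higher between the virus-carrying pools. S1PR1, a lipid receptor activated by KLF2 in lymphocytes and endothelium, was at 3.93, 11.1 and 8.0 CPM in the control cells, 5.03, 20.1 and 24.9 CPM in the HIF-1α re-expressing cells and 0.987, 3.56 and 2.57 CPM in the HIF-2α overexpressing cells. It was higher in HIF-1α re-expressing than in HIF-2α overexpressing cells in 3 of 3 pairs. The log2 fold change was 2.82 ± 0.67 (adjusted p = 0.112, and 0.00279 with the block, where 4.54% of tested genes were called higher). CDH1, which encodes E-cadherin and was named after its values were seen, was called higher in HIF-1α re-expressing cells with the block. It was called against control cells (adjusted p = 0.0293), as were 5.41% of the tested genes in that direction. It was also called against HIF-2α overexpressing cells (adjusted p = 0.0123), as were 4.54%. It rested on few counts, with 0, 0.0285 and 0.938 CPM in the control cells and 0.0245, 0.456 and 7.52 CPM in the HIF-1α re-expressing cells. Without the block its adjusted p was 0.403 and 0.555. BAX had a log2 fold change of -0.63 ± 0.24 and ODC1 one of -1.11 ± 0.55 in HIF-1α re-expressing against control cells. Their adjusted p was 0.215 and 0.289, and 0.0946 and 0.126 with the block. MMP9 stayed below 3.55 CPM in all libraries, and its log2 fold change in the same comparison was 1.28 ± 0.71 (adjusted p = 0.341).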

How the data were processed

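For RNA-seq the authors deposited unnormalized read counts by gene symbol, from polyA-selected directional libraries with TopHat2 2.0.8b, Bowtie 1.0.0, SAMtools 0.1.19 and HTSeq 0.5.4p3 on UCSC genes, per the paper's methods and the submitters' processing notes; the strand setting of the counting is not given in the sources used here. The 7 ChIP-seq lists were deposited as peak positions on GRCh37 (Trim Galore 0.3.3, BWA 0.7.5a-r405, Picard 1.106, peaks shared by T-PIC and MACS), each a window of 2500 bp without a score, so their depth is unknown. Reads shared with KLF pseudogenes may be split.

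Counts of all 9 libraries were fitted together in edgeR 4.0.16 (R 4.3.3) with the pool as the only term, TMM factors and the edgeR filter, which kept 14225 genes, and tested by quasi-likelihood with Benjamini-Hochberg adjustment at 0.05. HIF-1α and HIF-2α comparisons share their control libraries. DESeq2 1.42.0, other scaling, filtering and library choices, and the replicate number as a block were alternatives; steps were tested on simulated data. Whether the replicate numbers in the labels mark pairs was checked: after subtraction of pool means, the 9 same-numbered pairs from different pools correlated across genes at 0.348 to 0.652 and the 18 pairs of unlike number at -0.478 to 0.0281, so the numbers pair the libraries. The main fit leaves this pairing out, so its SE and p-values include the spread between replicate numbers. The common biological coefficient of variation was 37.6% in it and 24.6% with the block. An edgeR p-value given without mention of the block is from the main fit. In edgeR the HIF-1α virus gene HIF1A, against control cells, had an adjusted p of 0.149 without the block and 0.0418 with it. For EPAS1 in HIF-2α overexpressing against control cells these were 0.49 and 0.069. A gene that was not called is therefore not shown to be unchanged.

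Start sites and exon lengths came from GENCODE lifted to GRCh37. On it 12877 tested genes were placed by symbol, 890 by a RefSeq synonym and 458 not at all. A peak counted as near a gene when its midpoint lay within 10 kb of any start site. HRE cores (ACGTG or GCGTG) and AP-1 motifs were searched on both strands within 150 bp of the midpoint; in the printed strand a core on the other strand reads CACGT or CACGC. Sequences are from GRCh37 and from RefSeq promoters, 16 of which, of 8 members, were found once by exact match on GRCh37.

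The members and lists were chosen with earlier results of these data known. Genes named are the members, HIF1A and EPAS1, per list up to 4 genes with the smallest p over the comparisons, and the 5 genes most like KLF8. Exceptions, chosen after their values were seen, are CA9, EGR1 and CDH1. The 3 Input samples were not used here.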

Additional observations from a re-analysis of the deposited data

Results flagged for a closer look

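By its ratios S1PR1 moved in opposite directions in the virus-carrying pools. It was higher in HIF-1α re-expressing than in control cells in 3 of 3 pairs (1.28, 1.81 and 3.11). In HIF-2α overexpressing cells it was lower in 3 of 3 pairs (0.251, 0.32 and 0.321). Neither difference from control cells passed in edgeR. The adjusted p was 0.346 and 0.824 without the replicate number as a block, and 0.0581 and 0.0506 with it. Both differences share the control libraries. How many tested genes go opposite ways in every pair was not counted. Between the virus-carrying pools the log2 fold change was 2.82, which did not pass the test without a block (adjusted p = 0.112). It passed with the replicate number as a block (adjusted p = 0.00279), where 4.54% of the tested genes were called higher.

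EGR1, named after its values were seen, was likewise higher in each pair in HIF-1α re-expressing cells (1.58, 1.82 and 1.49). In HIF-2α overexpressing cells it was lower in each pair (0.39, 0.876 and 0.897). Neither difference from control cells passed in edgeR (adjusted p = 0.642 and 0.962 without the block, 0.0988 and 0.373 with it). Between the virus-carrying pools the log2 fold change was 1.12, with an adjusted p of 0.605 without the block and 0.0274 with it. The fit with the block called 4.54% of the tested genes higher there. Replicate 2 was the highest library in all 3 pools (165, 301 and 145 CPM).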

How the results depend on the processing

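The calls of members depended on the replicate number as a block and on the tool. In edgeR without the block 0 members were called in each comparison. With it edgeR called 1 higher (KLF8) in HIF-1α re-expressing cells against control cells and 1 against HIF-2α overexpressing cells, as did DESeq2 without the block, while DESeq2 with it, chosen after seeing the data, called 2 higher (KLF8 and KLF9) in both and 1 lower (KLF5) between the virus-carrying pools. KLF8 was chosen for being higher in the HIF-1α libraries, so that its calls in both comparisons support nothing. Over all tested genes the block moved the edgeR calls from 0 to 1132, 0 to 38 and 7 to 843 genes, and DESeq2 without the block called 751, 65 and 650. The calls of DESeq2 with the block over all genes were not counted. Leaving out single libraries gave 0 calls without the block, and 0 to 1 higher with it, also chosen after seeing the data: KLF8 remained called against control cells without control replicate 1, HIF-2α replicate 2 or HIF-2α replicate 3, and against HIF-2α overexpressing cells without any 1 control library or HIF-2α replicate 2. The cause was not tested. Among the log2 fold changes of the 10 members, 5, 2 and 6 kept their sign under all 24 alternatives in the 3 comparisons; KLF8 ranged from 2.00 to 3.21 against control cells and KLF9 from 0.44 to 2.02. Other scaling, no filter and a fit of 6 libraries changed no member's call. For peaks, members near a peak of HIF-2α in control cells numbered 1 within 5 kb and 4 within 50 kb, against 2 within 10 kb, and the other lists stayed within 1.5 times. At 14 to 540 counts a library, KLF8 is the member that depth limits most.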
